A study of Rattus norvegicus with 6 samples.

Results

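The genes described are the 10 that encode the chains of the high-affinity IgE receptor FceRI and the kinases and adaptors that act next to it. They were taken by symbol from a table of 18286 genes: Fcer1a, Ms4a2 and Fcer1g (receptor chains), Lyn, Fyn, Syk and Btk (kinases), and Lat, Lat2 and Lcp2 (adaptors). Each symbol matched 1 row, and no other gene of the table overlapped any of the 10 on the genome build used. The cells were RBL-2H3, a cultured rat basophilic leukemia line that displays FceRI and releases its granules when the receptor is crosslinked. Their RNA was sequenced in 3 control libraries, with a treatment label of none, and 3 libraries of cells treated with dihydrocoumarin (DHC), a lactone related to coumarin. A single protocol is given for all 6 samples, with IgE against dinitrophenyl at 50 ng/ml for 12 h and then the antigen DNP-HSA at 100 ng/ml for 4 h. How much DHC was used, and for how long, is not stated. The labels do not say separately whether the control cells received IgE and antigen, so the contrast is DHC against control as labelled. All libraries come from 1 cell line, and no label ties a library to its own culture. Each p-value therefore rests on library-to-library spread, part or all of which may be technical.

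IgE sits on the alpha chain, which has no signalling part of its own. The beta chain and the pair of gamma chains carry tyrosine motifs (ITAMs) that LYN phosphorylates when antigen draws receptors together. SYK docks on the phosphorylated gamma chains and in turn phosphorylates the membrane scaffold LAT, on which SLP-76 (the product of Lcp2) and BTK help to activate phospholipase C gamma. FYN opens a parallel route to phosphoinositide 3-kinase, and LAT2, also called NTAL, is a second scaffold related to LAT.

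The stretches of DNA just before the start sites of 4 of these genes are shown because the genes stand on different sides of the comparison: Fcer1a and Lat did not pass the test, and Btk and Lat2 were lower with DHC. Each runs 250 bases up to the annotated start, on the gene's own strand, from RefSeq on the build GRCr8. Of the 10 genes, 6 had an entry in the RefSeq table. Capitals mark GATAA, a form of the site that GATA factors bind, or TTATC, its reverse complement on the other strand. Other forms with the core GATA, such as GATAG, were not searched or marked. The Lat2 window holds ctatc, which is GATAG on the other strand, so a window without capitals can still hold a GATA site. Fcer1a lies at chr13:88224680-88224929 (minus strand), Btk at chrX:102055144-102055393 (minus strand), Lat at chr1:190372137-190372386 (minus strand) and Lat2 at chr12:27740465-27740714 (plus strand).
Fcer1a: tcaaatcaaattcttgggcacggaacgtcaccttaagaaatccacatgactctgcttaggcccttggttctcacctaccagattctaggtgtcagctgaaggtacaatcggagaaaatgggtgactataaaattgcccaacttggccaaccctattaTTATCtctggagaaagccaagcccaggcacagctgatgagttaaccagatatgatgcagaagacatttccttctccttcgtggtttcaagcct
Btk: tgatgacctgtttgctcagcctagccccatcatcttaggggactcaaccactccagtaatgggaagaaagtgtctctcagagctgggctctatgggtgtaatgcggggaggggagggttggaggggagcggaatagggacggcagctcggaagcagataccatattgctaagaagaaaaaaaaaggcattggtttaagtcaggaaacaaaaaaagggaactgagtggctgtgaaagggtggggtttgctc
Lat: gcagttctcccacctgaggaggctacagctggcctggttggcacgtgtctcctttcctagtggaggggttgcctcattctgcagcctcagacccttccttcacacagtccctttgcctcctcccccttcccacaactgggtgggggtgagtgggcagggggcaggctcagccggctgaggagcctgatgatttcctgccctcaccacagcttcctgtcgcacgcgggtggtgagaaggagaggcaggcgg
Lat2: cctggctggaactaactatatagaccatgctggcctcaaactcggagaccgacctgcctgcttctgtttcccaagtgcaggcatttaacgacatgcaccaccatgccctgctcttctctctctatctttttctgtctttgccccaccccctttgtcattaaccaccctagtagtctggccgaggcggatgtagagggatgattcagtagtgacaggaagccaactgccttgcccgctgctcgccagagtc
In these windows GATAA was found once, in Fcer1a, on the other strand and beginning 93 bases before the start. The windows of Fyn and Syk held none. Of 33469 windows of the same length in the table, 23.5% held the motif on either strand. A second motif, GAGGAA, the core favoured by the blood factor PU.1, was searched on both strands and was found once in Syk and in none of the other 5, against 23.3% of all windows. The 2 motifs share no overlap in these windows.

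Of the 10 genes, 9 reached the mean of 1 RPKM (reads per kilobase of exon, scaled to the library's total of assigned reads) required for the test. With DHC 4 of the 9 were lower, Lcp2, Btk, Lat2 and Lyn, and 1 was higher, Ms4a2, at an adjusted p below 0.05 (limma, Benjamini-Hochberg over 10667 genes). Over all genes tested, 34.5% passed in either direction, 18.4% as higher and 16.1% as lower. Scaling libraries by trimmed means changed the numbers of all genes from 1968 higher and 1717 lower to 1284 and 2115 (37.8% higher among those called instead of 53.4%), and those of the 9 to 0 higher and 5 lower. The median difference of the 9 on the log2(RPKM + 1) scale, DHC minus control, was −0.23, beside 0.05 for all genes tested. Libraries of the groups did not overlap for 6 of the 9, 5 lower and 1 higher, while 49.7% of all genes tested did not overlap, 21.6% lower and 28.1% higher. The libraries held between 29084976 and 34170922 assigned reads. Reads of the mitochondrial chromosome made up between 3.34% and 3.53% in control and between 3.91% and 4.14% in DHC libraries, and the part of this shift in the results was not tested. Because these are whole cultures, fewer cells with a transcript and less transcript per cell cannot be told apart.

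**Figure D1:**
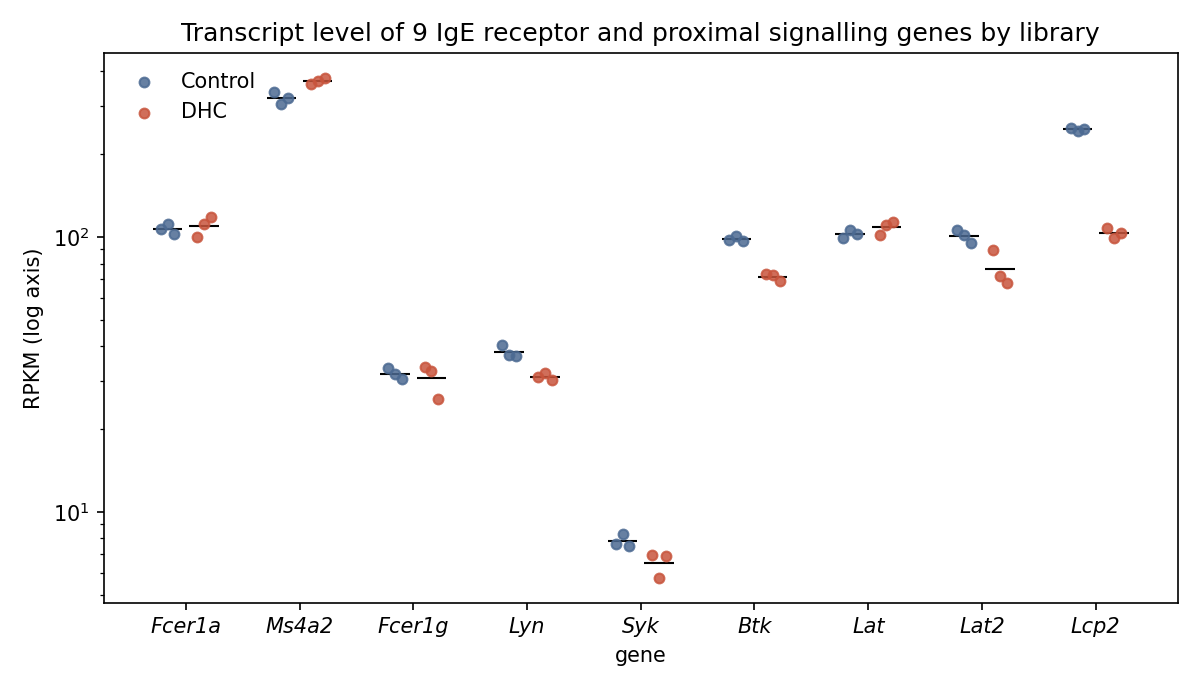
RPKM (log axis) of the 9 tested genes in each library, with 3 control points (blue) and 3 DHC points (red) per gene and a bar at each group's mean. Lcp2 goes from 246.1 RPKM, second to Ms4a2, to 103.2 RPKM, near Fcer1a and Lat, while Fcer1a, Fcer1g and Lat overlap between groups.

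Markers fixed for the cell type matched a mast cell or basophil line. Of 13 listed markers 11 had a row and 9 were at a mean of 1 RPKM or more, among them Kit, Hdc, Gata2, Srgn and Cpa3, while the tryptase gene Tpsb2 had 2 reads in all 6 libraries. The summed level of this list ranged from 883 to 919 RPKM in control and from 523 to 569 RPKM in DHC libraries, and its part in the results was not tested. Most of the 9 had a lower mean in DHC. In control and DHC, Gata2 was at 345 and 69.9 RPKM and Kit at 115 and 64.4 RPKM. Il1rl1 was at 48.5 and 14.9 RPKM, Gata1 at 36 and 15.2, Hdc at 47.3 and 38.2 and Mitf at 6.14 and 5.09. The others had a higher mean in DHC, with Srgn at 281 and 307 RPKM, Cpa3 at 17.5 and 20.7 and Mcpt1 at 8.48 and 9.33. Among T cell genes Cd3e stood at 34.6 RPKM in control and 41.8 RPKM in DHC, so the summed list ranged from 31.8 to 37.7 and from 40.7 to 43.9 RPKM. Of the other T cell genes listed, Cd3d, Cd4 and Cd8a had 4 reads each in all libraries together, Cd3g had 10 and Cd28 had 16. The summed B cell list stayed at or below 0.376 RPKM in each library and the neutrophil list at or below 0.0453 RPKM. For macrophages 5 of 5 markers had a row, with sums from 1.21 to 1.77 and from 1.56 to 2.40 RPKM, and Adgre1 and Cd14 had 16 and 4 reads in all. Col3a1 was the 1 fibroblast gene above 1 RPKM, at 23.6 and 21.9 RPKM, with Col1a1 at 0.0585 and 0.0765 RPKM.

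None of the 3 receptor chains was called lower, beside 16.1% of all genes tested. Fcer1a encodes the alpha chain, which holds IgE at the cell surface (Rnor_6.0 chromosome 13, 91730925 to 91737053, minus strand). Its RPKM was 106.8, 111.1 and 102.2 in control and 99.58, 111.4 and 118.3 in DHC libraries. The groups overlapped, with both the lowest and the highest value among the DHC libraries. The log2 difference was 0.04 ± 0.07 (SE, n = 3 per group) with a 95% interval from −0.12 to 0.20 (limma adjusted p = 0.7). Its sign turned negative with libraries scaled by trimmed means (−0.03) or by median-of-ratios factors (−0.02), or with DHC replicate 3 left out (−0.02). Fcer1a was expressed above most genes: 8.28% of the tested genes had a higher mean RPKM.

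Ms4a2 encodes the beta chain, an amplifier of the signal that also helps bring the receptor to the surface (chromosome 1, 227957302 to 227965386, minus strand). Its level was 337, 305.3 and 320.4 RPKM in control and 358.5, 368.5 and 378.5 RPKM in DHC libraries. Every DHC library lay above every control library. The log2 difference was 0.20 ± 0.05 (SE), with a 95% interval from 0.09 to 0.31 (limma adjusted p = 0.0166). The call did not hold under scaling by trimmed means (0.13, adjusted p = 0.0763) or median-of-ratios factors (0.14, 0.0608), nor when a single library was left out, if that was control replicate 2 (0.0623), the second DHC replicate (0.0605) or the third (0.0591). A difference of this size was common, as 48% of the tested genes differed by more in either direction.

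Fcer1g encodes the gamma chain, the partner of several other Fc receptors as well (chromosome 13, 89601896 to 89606326, minus strand). Control libraries gave 33.3, 31.82 and 30.38 RPKM and DHC libraries 33.75, 32.66 and 25.62 RPKM, from between 472 and 655 reads a library. DHC replicate 3 lay below all the others, and the other 2 DHC libraries lay within or just above the control range. The log2 difference was −0.06 ± 0.10 (SE), with a 95% interval from −0.30 to 0.18 (limma adjusted p = 0.679), and 0.06 without DHC replicate 3. The spread within the DHC group, a coefficient of variation of 14.4% against 4.59% in control, was the second widest among the 9 tested genes after that of Lat2.

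Lyn encodes the SRC-family kinase that starts the cascade and can also restrain it (chromosome 5, 16526058 to 16642648, plus strand). Its level was 40.33, 37.19 and 37 RPKM in control and 31.01, 32 and 30.11 RPKM in DHC libraries, with no overlap. It fell by 0.29 on the log2 scale (SE 0.05, 95% interval from −0.42 to −0.16, limma adjusted p = 0.00576), and the call held in each of 15 alternatives, with adjusted p up to 0.025. Fyn, the other SRC-family kinase of the scheme (chromosome 20, 44436403 to 44630317, plus strand), had 0, 0 and 4 reads in control and 0, 4 and 2 reads in DHC libraries. For comparison, Lyn had between 3015 and 4337 reads a library. In the library with the fewest reads, 3 reads correspond to 0.0268 RPKM of Fyn, and no fold was computed for this gene. These floors cover counting error only.

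Syk encodes the tandem SH2 kinase that docks on the gamma chain (chromosome 17, 12614311 to 12669573, minus strand). It stood at 7.628, 8.324 and 7.514 RPKM in control and 6.961, 5.764 and 6.895 RPKM in DHC libraries. All DHC values lay below all control values, DHC replicate 2 furthest. The log2 difference of −0.23 ± 0.09 (SE, 95% interval from −0.44 to −0.02 before adjustment) did not pass over all genes (limma adjusted p = 0.0824). It passed under scaling by trimmed means (0.0411), median-of-ratios factors (0.0464) and limma-voom on recovered reads (0.0225), and over all 15 alternatives the adjusted p ranged from 0.0225 to 0.234. Syk had the lowest level of the 9 tested genes, and 61.5% of the tested genes had a higher mean RPKM.

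Btk encodes the TEC-family kinase that acts on phospholipase C gamma (chromosome X, 105360922 to 105390580, minus strand). Its level was 97.69, 100.9 and 97.01 RPKM in control and 73.17, 72.71 and 69.38 RPKM in DHC libraries. The groups were far apart relative to their spread, with SDs of 2.08 and 2.07 RPKM. The fall was 1.37-fold (log2 difference −0.45 ± 0.04, SE, limma adjusted p = 0.000257), and 15.7% of the tested genes differed by more. The call held in all 15 alternatives, with differences from −0.52 to −0.43.

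Among the adaptors, the 2 related scaffolds did not give the same result. Lat (chromosome 1, 197765644 to 197770669, minus strand) was at 98.68, 106.2 and 102.4 RPKM in control and 102, 110.7 and 113.1 RPKM in DHC libraries, and the groups overlapped. Its log2 difference was 0.08 ± 0.05 (SE) with a 95% interval from −0.04 to 0.21 (limma adjusted p = 0.263). Lat2 (chromosome 12, 25119355 to 25125749, plus strand) was at 105.8, 101.2 and 94.9 RPKM in control and 89.27, 72.24 and 67.99 RPKM in DHC libraries. Here every DHC value was below every control value, with DHC replicate 1 nearest to the control range. Lat2 fell 1.32-fold (log2 difference −0.40 ± 0.10, SE, limma adjusted p = 0.0178). That call sat close to the threshold and was lost with no filter on low values (0.0537). Leaving out control replicate 1 (0.0534) or 2 (0.052), or DHC replicate 2 (0.0664) or 3 (0.0518), also ended it.

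Lcp2 encodes SLP-76, the cytosolic adaptor that links LAT-bound complexes to phospholipase C gamma and VAV1 (chromosome 10, 18996523 to 19043286, plus strand). It stood at 249, 243.4 and 246 RPKM in control and 107.4, 99.45 and 102.9 RPKM in DHC libraries, from between 10157 and 28433 reads. The lowest control library was above the highest DHC library by far more than the spread within either group, with SDs of 2.81 and 3.99 RPKM. The fall was 2.38-fold (log2 difference −1.25 ± 0.04, SE, 95% interval from −1.35 to −1.15, limma adjusted p = 2.85e-06). Only 103 of the 10667 tested genes had a more negative difference, and 1.40% differed by more in either direction. Over the 15 alternatives the difference ranged from −1.31 to −1.22 and each passed the threshold.

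**Figure D2:**
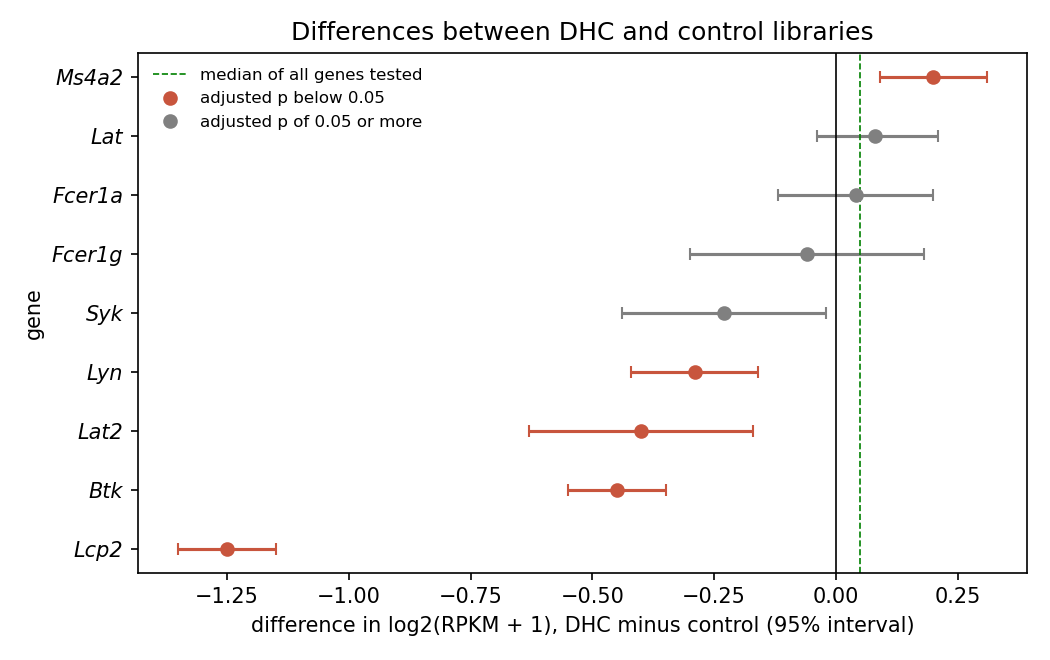
Difference in log2(RPKM + 1), DHC minus control, for the 9 tested genes, with 95% intervals from limma, red where the adjusted p was below 0.05 and grey otherwise. Lcp2 stands apart at −1.25, Btk, Lat2 and Lyn lie between −0.45 and −0.29, and the intervals of Fcer1a, Fcer1g and Lat include 0.

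The order of levels in RPKM, which divides reads by the annotated exon length, differed between the groups mainly through Lcp2. In control libraries Ms4a2 (320.9 RPKM) was highest, then Lcp2 (246.1 RPKM), and neither range overlapped its neighbour. Next came Fcer1a, Lat, Lat2 and Btk, between 98.54 and 106.7 RPKM, and the ranges of successive genes among them overlapped. Lyn (38.18 RPKM), Fcer1g (31.83 RPKM) and Syk (7.822 RPKM) followed without overlap. In DHC libraries Lcp2, at 103.2 RPKM, stood below Fcer1a and Lat and its range overlapped that of Lat just above it. Lat2 and Btk, at 76.5 and 71.75 RPKM, formed a lower pair with overlapping ranges. The ranges of Lyn and Fcer1g, at 31.04 and 30.68 RPKM, also overlapped, which they had not in control. RPKM depends on the annotated exon length, which was 631 bases for Fcer1g and 655 for Lat2 against 5316 for Syk.

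The proportions of the transcripts within each step were then compared, since a ratio within a library does not depend on how libraries are scaled. Of 10 ratios, 9 could be formed, and the ratio of Fyn to Lyn could not because Fyn had 0 reads in 3 libraries. In 6 of the 9 the groups did not overlap, and the share among ratios of other genes was not computed. Of all single genes tested, 49.7% did not overlap. With 3 against 3 libraries the smallest possible p of the exact two-sided permutation test is 0.1, so none of the ratios could pass 0.05, and after Benjamini-Hochberg adjustment over 9 the smallest was 0.15.

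For the receptor, the beta chain gene had a higher RPKM than the alpha chain gene. The ratio of Ms4a2 to Fcer1a was 3.16, 2.75 and 3.14 in control and 3.6, 3.31 and 3.2 in DHC libraries. Each DHC ratio was above each control ratio, by a log2 difference of 0.16 (exact permutation p = 0.1, adjusted 0.15), which was 0.10 with control replicate 2 left out. Fcer1g had the lowest RPKM of the 3 chains. Its ratio to Fcer1a was 0.312, 0.286 and 0.297 in control and 0.339, 0.293 and 0.217 in DHC libraries, which overlapped (log2 difference −0.10, exact permutation p = 0.8), and without DHC replicate 3 the difference was 0.08. The assembled receptor holds more gamma than alpha chains, while Fcer1g had a lower RPKM than Fcer1a in all 6 libraries. Such quotients depend on the annotated exon lengths, 631 bases for Fcer1g and 977 for Fcer1a. Protein levels are not part of these data, so the proportions of the chains were not tested. Of the summed RPKM of the 3 chains, Ms4a2 made up 69.8% ± 1.5 in control and 72.4% ± 0.50 in DHC libraries (SD, n = 3), Fcer1a 23.2% ± 1.3 and 21.5% ± 1.2, and Fcer1g 6.93% ± 0.20 and 6.05% ± 1.0. The ratio of Ms4a2 to Fcer1g was 10.1 ± 0.48 in control and 12.2 ± 2.2 in DHC libraries without overlap (exact permutation p = 0.1), with DHC replicate 3 highest at 14.8. The log2 difference of 0.26 was 0.12 with that library left out.

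Between receptor and kinases, Lyn was lower in DHC libraries relative to the beta chain that its product binds. The ratio of Lyn to Ms4a2 was 0.120, 0.122 and 0.115 in control and 0.0865, 0.0868 and 0.0796 in DHC libraries. The groups did not overlap (log2 difference −0.50, exact permutation p = 0.1). For Syk against Fcer1g the ratios overlapped, at 0.246 ± 0.016 and 0.217 ± 0.047 (SD; exact permutation p = 0.4), and so did those of Btk against Syk, at 12.6 ± 0.43 and 11.1 ± 1.4 (p = 0.2, same test). The shares of the kinases in their summed RPKM differed by small amounts, without overlap between the groups for Btk and Lyn. Btk made up 68.2% ± 0.97 in control and 65.6% ± 0.35 in DHC libraries. Lyn made up 26.4% ± 1.2 and 28.4% ± 0.53, and Syk 5.41% ± 0.24 and 5.99% ± 0.68. The sum of the kinases was 144.5 ± 2.61 RPKM in control and 109.3 ± 2.57 RPKM in DHC libraries.

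The adaptor ratios with Lcp2 had the largest log2 differences of the 9. The ratio of Lcp2 to Lat was 2.52, 2.29 and 2.40 in control and 1.05, 0.898 and 0.910 in DHC libraries (log2 difference −1.34, exact permutation p = 0.1). The RPKM of Lcp2 thus went from above that of Lat to about the same level. Lcp2 was lower against Lat2 also, at 2.35, 2.41 and 2.59 in control and 1.2, 1.38 and 1.51 in DHC libraries (log2 difference −0.85, exact permutation p = 0.1). The ratio of Lat2 to Lat was 1.07, 0.953 and 0.927 in control and 0.875, 0.652 and 0.601 in DHC libraries, without overlap (log2 difference −0.49, exact permutation p = 0.1). Leaving out any 1 library moved this last difference between −0.65 and −0.38. Of the summed adaptor RPKM, Lcp2 made up 54.8% ± 0.76 in control and 35.8% ± 0.53 in DHC, while Lat went from 22.8% ± 0.93 to 37.7% ± 3.1 with no change in its own level past the threshold.

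**Figure D3:**
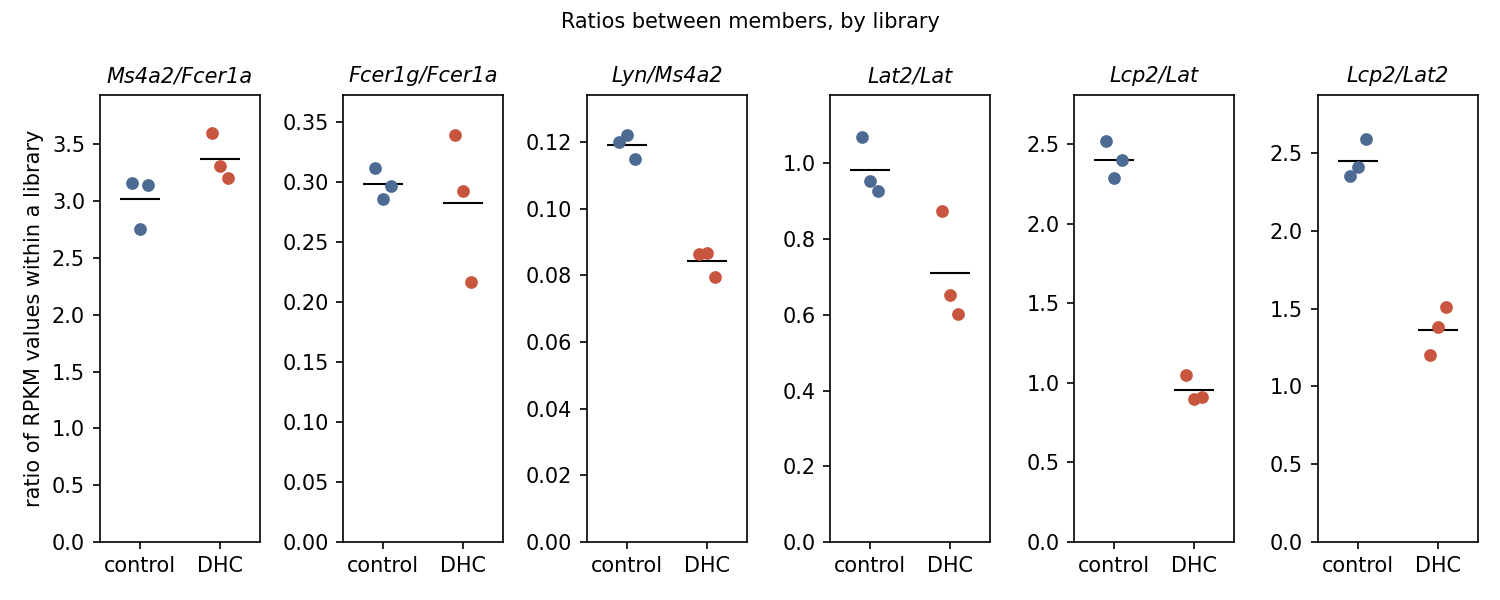
Ratio of RPKM values within each library for 6 pairs, with 3 control and 3 DHC points and a bar at each mean, all vertical axes starting at 0. Lcp2 to Lat goes from between 2.29 and 2.52 to between 0.898 and 1.05, whereas Fcer1g to Fcer1a overlaps between the groups.

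The other genes of the pathway were taken from 6 lists by role. Of 86 listed symbols 72 had a row, and 54 of these were tested. With DHC 27 were lower (50%) and 4 higher (7.41%), beside 16.1% and 18.4% of all genes tested, and their median log2 difference was −0.22 against 0.05. The lists were chosen with earlier results of these data known, so these shares are descriptions. With limma-voom 7 of the listed genes were higher instead of 4, beside 2305 instead of 1968 of all genes tested.

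Among kinases related to the proximal ones, Src, the founding SRC-family kinase, fell from 12.43 ± 0.0933 to 5.292 ± 0.417 RPKM (SD, n = 3; log2 difference −1.10, limma adjusted p = 4.79e-05). Yes1, another of that family, was at 7.744 and 7.089 RPKM and did not pass (adjusted p = 0.342). Of the TEC family, Tec fell from 44.82 ± 1.25 to 31.91 ± 0.808 RPKM, 1.40-fold (log2 difference −0.48, limma adjusted p = 0.00031), beside the 1.37-fold fall of Btk, and Bmx was below the filter.

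Of 13 tested adaptors and exchange factors 5 fell and 2 rose, with a median of 0.08. Gab2, the scaffold of the FYN route, fell from 76.71 ± 4.83 to 42.97 ± 2.45 RPKM, Gab1 1.54-fold and Nck2 1.55-fold. Fyb, which encodes the SLP-76 binding protein ADAP, fell from 116.9 ± 11.1 to 83.23 ± 11 RPKM (log2 difference −0.49, limma adjusted p = 0.00929). Skap2, whose product binds ADAP, rose from 116 ± 2.59 to 149.4 ± 9.74 RPKM (0.36, 0.00234). Grap2, the gene of the adaptor that joins SLP-76 to LAT, had no row under that symbol. Of the 4 tested relatives of the receptor chains, the IgG receptor genes Fcgr2a (16.11 to 9.612 RPKM) and Fcgr2b (34.88 to 29.73 RPKM) fell, with single values that are uncertain where reads could be shared between these similar genes. Fcgr1a and Fcgr3a, whose products use the gamma chain, were below the filter.

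Of 14 tested lipid enzymes and downstream effectors 6 fell and 1 rose, and 4 passed instead of 7 without control replicate 2 or without DHC replicate 2. Plcg2, the phospholipase C gamma gene with the higher level here, was at 47.02 ± 3.41 and 44.89 ± 3.03 RPKM with a log2 difference of −0.06 (95% interval from −0.23 to 0.10, limma adjusted p = 0.511). Sphk2, a sphingosine kinase gene, fell from 2.80 ± 0.849 to 1.176 ± 0.0873 RPKM, the phosphoinositide 3-kinase gene Pik3cd 1.36-fold and Prkcd, a protein kinase C gene, 1.27-fold. Pik3r1, a regulatory subunit gene, was at 54.93 and 47.16 RPKM (adjusted p = 0.0221), and this call was lost when control replicate 2 (0.0753) or 3 (0.0561), or DHC replicate 2 (0.0834) or 3 (0.0740), was left out.

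Among 17 tested negative regulators 11 fell and 1 rose, with a median of −0.42. Ubash3b, a phosphatase gene that restrains SYK, fell from 18.1 ± 0.59 to 8.644 ± 0.305 RPKM (log2 difference −0.99, limma adjusted p = 3.49e-05). Csk, the kinase that holds LYN inactive, fell 1.37-fold, and Pag1, its membrane anchor, 1.71-fold. Inpp5d, the gene of the lipid phosphatase SHIP1, fell 1.61-fold. Ptpn6, the SHP-1 phosphatase gene, was at 113.7 and 93.04 RPKM (log2 difference −0.29, adjusted p = 0.0175), a call lost without control replicate 2 (0.0507) or control replicate 3 (0.0573). Lower calls were found among activating kinases and among genes that oppose them, and no difference between these lists was tested.

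**Figure D4:**
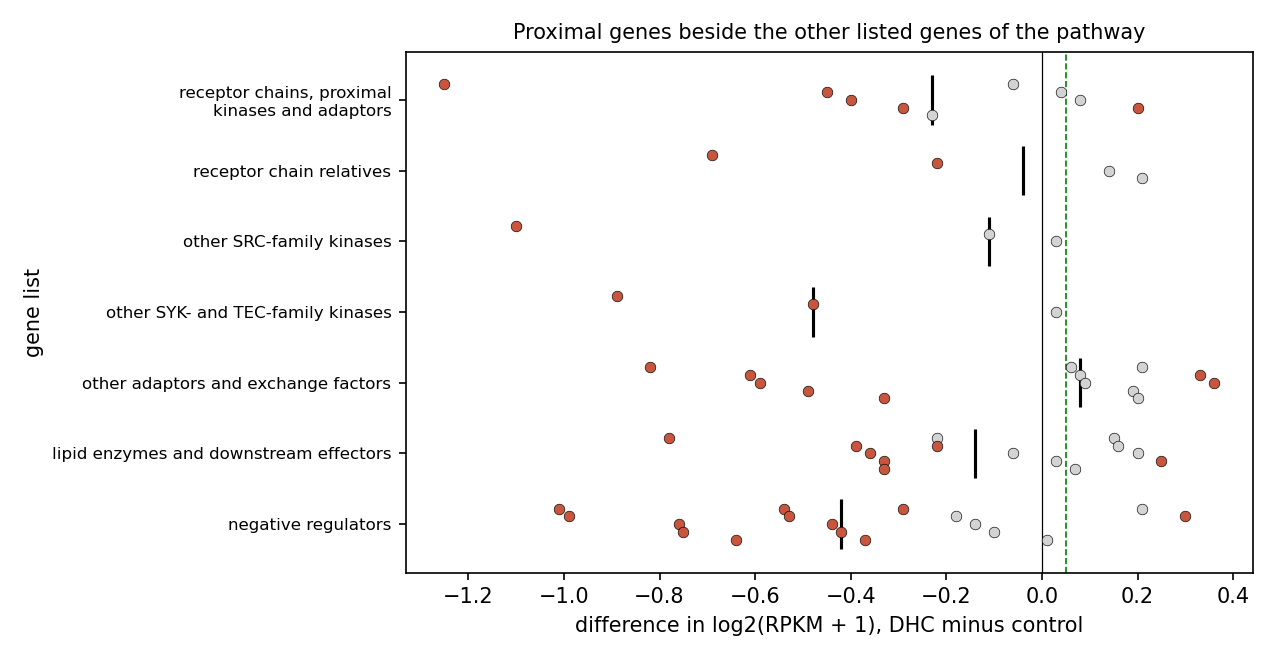
Difference in log2(RPKM + 1), DHC minus control, of each tested gene in the proximal set and in 6 lists of other pathway genes, red where the adjusted p was below 0.05, with a black bar at each list's median and a dashed green line at the median of all genes (0.05). Medians range from −0.48 for the other SYK and TEC kinases to 0.08 for the other adaptors, with points of either sign in each list.

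Genes with the pattern most like a member across the 6 libraries were searched among 6605 genes with a symbol and a mean of at least 5 RPKM, by Pearson's r of log2(RPKM + 1). These r values are descriptions, since all points share the 6 libraries and the step between groups. For Lcp2 the nearest were Nfkb1, an NF-kB subunit gene, which went from 63.21 to 33.9 RPKM, and Mtss1, from 117.7 to 38.02 RPKM (r = 0.9998 for each). Lyn was matched most closely by Ccdc174 (r = 0.9988) and by the elongation factor gene Ell2 (r = 0.9982). For Ms4a2 they were Nudt9 (r = 0.9944) and the RNA polymerase III subunit gene Polr3g (r = 0.9931), and for Fcer1a Akap8l (r = 0.9942) and Supt3h (r = 0.9802). Fcer1g was followed less closely, by the microRNA row Mir3074 (r = 0.9654) and the channel gene Lrrc8a (r = 0.9635), both also lowest in DHC replicate 3.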

How the data were processed

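RNA of 6 RBL-2H3 samples was sequenced. Per the submitters' processing notes, the tools were Trimmomatic 0.36, Subread 1.5.1 (with featureCounts) and edgeR 3.12.1, with Rnor_6.0 as the build; their settings are not given. The aligner, the annotation release and whether strand was used in counting are likewise not given in the sources used here. The authors deposited an RPKM value for every gene and library beside exon positions and lengths. Within a library, 100% of products of RPKM and length were whole multiples (within 0.01) of the smallest product, taken as 1 read. These multiples are the reads, and their sum is the library total.

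The test was limma 3.58.1 with a trended variance in R 4.3.3 on log2(RPKM + 1), for genes whose mean reached 1 RPKM, with group as the only term and a threshold of 0.05 on the adjusted p. This scale understates changes of low genes, and N-fold values are quotients of group mean RPKM. Ratios were taken without a pseudocount. Named genes are all members, up to 3 called genes with the lowest p and 2 genes with the highest level from each list, and the 2 genes most like each of 5 members. Not every gene so named is reported here. Sequences came from RefSeq and were searched by exact match. The members, lists and motifs were chosen with earlier results of these data known. Alternatives were pseudocounts of 0.1 and 0.5, no filter or 5 RPKM, 2 scalings, limma-voom, a replicate block and leaving out libraries.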

Additional observations from a re-analysis of the deposited data

How the results depend on the processing

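Across 15 alternatives to the limma fit, Lyn, Btk and Lcp2 kept their direction and stayed past the threshold, and Lat stayed on the other side of it with a positive sign. Under scaling by trimmed means or median-of-ratios factors 0 members were higher by limma, 1 at an unadjusted p under 0.05, and all genes higher numbered 1284 under the first. Leaving out 1 library gave between 3 and 5 members past the threshold, between 0 and 1 higher, and between 1195 and 1755 genes higher over the whole table, the fewest without DHC replicate 2. Fewer libraries were fitted there, and the cause was otherwise not tested. With limma-voom, run without such scaling, 1 member and 7 genes of the pathway lists were higher, beside 2305 of all genes tested. The Fcer1a difference was −0.03 under trimmed means, −0.02 under median-of-ratios factors and between −0.02 and 0.11 when 1 library was left out, that of Fcer1g was between −0.13 and 0.06, and the ratio of Fcer1g to Fcer1a differed by between −0.24 and 0.08 when 1 library was left out. The other 8 ratios kept their sign in each alternative. Of 21 named pathway genes, 19 kept their call in every alternative that tested them. Same-numbered libraries of the groups did not all deviate together (correlations of 0.228, −0.0495 and 0.0828). The best match of DHC replicate 3 was control replicate 2 (0.106), so these correlations alone did not show pairing by number. The second principal component did order the libraries by number, with 12.12 and 11.53 for those numbered 1, −2.487 and −2.146 for 2, and −10.67 and −8.351 for 3. With a replicate block 5 members, 1 higher and 4 lower, and 4333 genes passed instead of 3685, and no member's call changed. Fyn alone among the members was below the filter of 1 RPKM, with at most 4 reads a library.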
